A study of Saccharomyces cerevisiae with 3 samples.

Results

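The small subunit of the yeast mitochondrial ribosome was described through the mRNAs of its proteins. The genes were the 30 ORFs of a fixed list, made of the MRPS and RSM genes with NAM9, PET123, SWS2, MRP1, MRP2, MRP4, MRP13, MRP17, MRP21 and MRP51, and all 30 were among the 5293 ORFs named in every deposited RPKM table. The list names genes of the particle and its rule uses no measured value, although it was proposed with earlier results of these data known. Cells of the laboratory strain BY4741 of Saccharomyces cerevisiae had been grown to mid-log phase in YPD, a rich glucose medium. RNA enriched for the cytoplasm was sequenced after random fragmentation in 3 libraries, 1 of unselected total RNA, 1 of RNA captured through its poly(A) tails on Dynabeads oligo(dT) and 1 of RNA depleted of rRNA with RiboMinus probes. Strain, medium and growth phase were shared by the 3 libraries, and the comparisons are between RNA preparations. With 1 library of each, any difference between cultures or RNA samples cannot be told apart from the preparation. With 1 library for each preparation there was no replicate to check a difference against, and no test or p-value is given. Footprints and the Ribo-Zero library were not analysed here.

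Mitochondria keep a ribosome of their own, which translates the few mRNAs of the mitochondrial genome into hydrophobic subunits of the respiratory chain and the ATP synthase. The rRNA of the small subunit is made inside the organelle, whereas the proteins described here are encoded in the nucleus, made in the cytoplasm and imported. Of the 30, 19 belong to bacterial-type families and were grouped by their place in the particle as head, platform or body, with MRP4 and MRP51 beside them. The other 11 are mitochondria-specific or, as RSM22, related to an enzyme family. Bacteria bundle many of their ribosomal protein genes into operons, while in yeast the genes are spread over the nuclear chromosomes. Only MRPS12 and RSM19 lay side by side, on the minus strand of chromosome XIV with 229 bases between their coding sequences, and every one of the 30 has a single coding exon.

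Puf3 is an RNA-binding protein known to bind mRNAs of nuclear-encoded mitochondrial proteins after the stop codon and to promote the shortening of their poly(A) tails and their decay. Its element, written as DNA, is TGTANATA. This is shown because tail-based capture is among the preparations compared and because nearly all of the 30 genes carry it. Within the 300 bases after the stop codon, on the coding strand, the element was found in 29 of 30 genes, which is 96.7%, against 17.3% of all listed ORFs, or 916 of 5293. RSM22 had none in that window. On the opposite strand of the same windows the element stood in 5 of 30 genes, or 16.7%, against 16.2% of all listed ORFs. The large subunit had it in 42 of 42 genes, the mitochondrial aminoacyl-tRNA synthetases in 14 of 14, the mitochondrial translation factors in 7 of 9 and the translational activators in 13 of 17, whereas 0 of the 25 listed genes of the cytosolic small subunit had it. A match is a description of letters and not evidence that Puf3 binds there.

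The sites of 10 small subunit genes are given below, chosen because the results on levels and ratios turn on these genes. Each is read 5′ to 3′ on the coding strand of the RefSeq R64 genome (sacCer3), with the 8-base element in capitals. RSM19 has 3 elements and MRPS16 and MRPS12 have 2 each, and all of them are shown.
MRPS16, chrXVI:528884-528907, minus strand: gtatatgtTGTATATAtgttttac
MRPS16, chrXVI:528843-528866, minus strand: atcagactTGTAAATAatacatct
RSM19, chrXIV:695027-695050, minus strand: ggatctagTGTATATAgatttcta
RSM19, chrXIV:694999-695022, minus strand: atatatcaTGTAAATAagatcaag
RSM19, chrXIV:694971-694994, minus strand: actcgggcTGTATATAtatatata
MRPS12, chrXIV:694272-694295, minus strand: caacctttTGTAAATAgcaatgac
MRPS12, chrXIV:694080-694103, minus strand: ggaactagTGTAGATAcaagacta
NAM9, chrXIV:368525-368548, minus strand: ctttacacTGTAAATAtttaattt
MRPS17, chrXIII:636220-636243, minus strand: ctacactcTGTAAATAtatacaac
RSM18, chrV:253889-253912, minus strand: gttctgtcTGTAAATAtacaatat
RSM10, chrIV:540465-540488, plus strand: ttcgtactTGTAAATAaaataggt
MRP21, chrII:49404-49427, plus strand: tccgtcttTGTAAATAggtaatgc
RSM27, chrVII:922550-922573, plus strand: tcatttcaTGTACATAcaaaatca
MRP4, chrVIII:100432-100455, plus strand: cctaaactTGTACATAtgcccata

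The 30 genes held 36 elements, and 6 genes had more than 1. In the 29 genes with an element, the first began between 8 bases after the stop codon in MRPS5 and 139 bases after it in MRPS9, with a median of 54. None of the 36 lay in another annotated coding sequence. The free base of the element was A in 20, T in 8, C in 7 and G in 1, while over all listed ORFs T was the most frequent, in 496 of 1014 elements, and A stood in 282. A C lay 2 bases before the element, as at the second site of MRPS16 above, in 21 of 36 elements, or 58.3%, against 27.7% over all listed ORFs. These traits are not particular to the small subunit. In the large subunit a C lay there in 34 of 52 elements, or 65.4%, and the free base was A in 20 and T in 20. Its first elements began 13 to 136 bases after the stop codon, with a median of 50. The 3 elements of RSM19 began 10, 38 and 66 bases after its stop codon, in the gap between it and MRPS12.

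**Figure D1:**
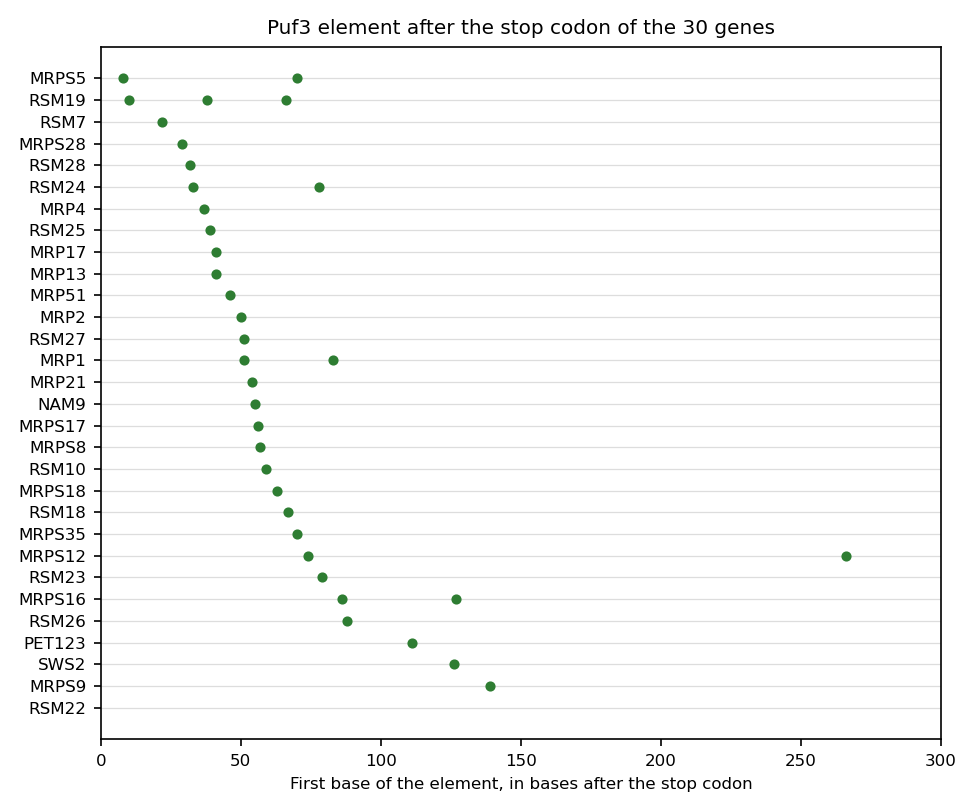
Position of each TGTANATA element after the stop codon of the 30 small subunit genes, in bases on the x axis and 1 gene a row, ordered by the first element. Of the 29 genes with an element, all have the first within 139 bases of the stop codon, and the row of RSM22 is empty.

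Listed ORFs held 4452562 reads in the unselected, 6467545 in the poly(A)-selected and 1317745 in the RiboMinus library. Reads per small subunit gene ran from 117 to 477 in the unselected, from 360 to 1365 in the poly(A)-selected and from 34 to 189 in the RiboMinus library, so the RiboMinus values are the least precise. The mating type a genes MFA1, MFA2, STE2 and BAR1 had 217 to 788 RPKM in the unselected library, and the alpha-specific genes MF(ALPHA)1 and STE3 and MET17, which BY4741 lacks, had 1.81, 6.53 and 0.84 RPKM. MF(ALPHA)1 stood at 15.3 RPKM in the RiboMinus library. RPKM, reads per kilobase and per 1e6 reads, is scaled by length. A comparison between genes of unlike length still carries any length trend of the library. Spearman's rho of RPKM with coding length over all ORFs kept was −0.098 unselected, −0.38 poly(A)-selected and −0.076 RiboMinus. The interval given with a level is the exact Poisson 95% interval of its reads, and it covers counting error only.

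All 30 genes lay between percentiles 36.1 and 89.0 of the ORFs kept in the unselected library. MRPS12, MRPS18 and RSM19, all of bacterial-type proteins, had the highest values there. The interval of RSM19, 115 to 157 RPKM, overlapped those of MRPS18, SWS2, MRPS16 and the mitochondria-specific RSM27, so its rank is not resolved. Over the 30 genes the median level was 66.0 RPKM unselected, 122 RPKM after poly(A) selection and 83.1 RPKM after RiboMinus treatment, against medians of 48.4, 54.1 and 52.5 RPKM over the 5199 ORFs kept at a mean of at least 1 RPKM. Together they took 0.165%, 0.277% and 0.202% of the reads. In the unselected library the highest gene lay 6.82-fold above the lowest, and the middle 50% of the genes spanned 54.9 to 88.4 RPKM, a 1.61-fold range, where the middle 50% of all ORFs kept spanned a 4.04-fold range. The SD of log2 RPKM was 0.59 in the unselected, 0.91 in the poly(A)-selected and 0.73 in the RiboMinus library, and counting alone would give 0.099, 0.062 and 0.17. The spread between the mRNAs of this particle was thus larger than counting error in each library. The 42 listed genes of the large subunit had medians of 72.6, 132 and 58.8 RPKM and SDs of 0.53, 0.73 and 1.09.

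**Figure D2:**
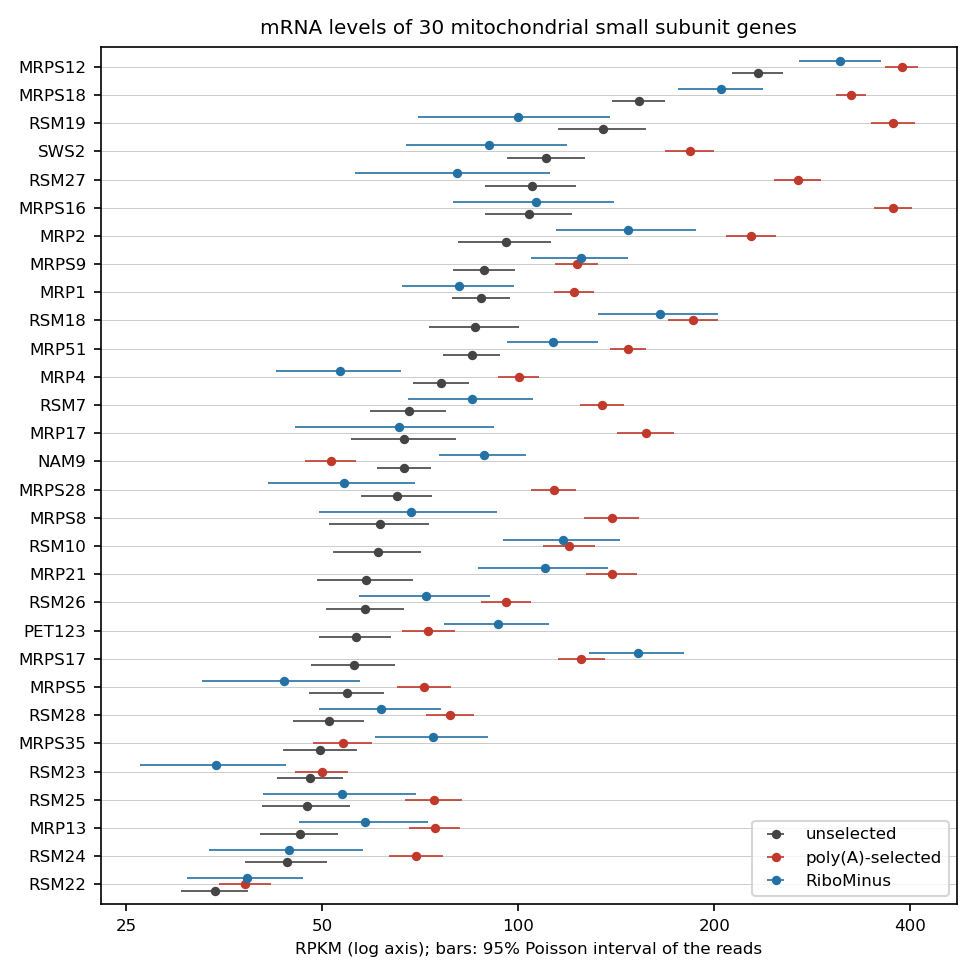
Level of each of the 30 genes in RPKM (log axis) in the unselected (grey), poly(A)-selected (red) and RiboMinus (blue) libraries, ordered by the unselected value, with 95% Poisson intervals of the reads as bars. MRPS12 has the highest value in each library, from 233 to 388 RPKM, and RSM22 is lowest in the unselected library at 34.2 RPKM. In the poly(A)-selected library the intervals of MRPS12, MRPS16 and RSM19 overlap.

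In the values that follow, the 3 numbers of a gene are its RPKM in the unselected, the poly(A)-selected and the RiboMinus library, in that order. Proteins of the body come first. MRPS12 (YNR036C, uS12m, a protein of the decoding centre; chrXIV:694361-694822, minus strand) had 233, 388 and 312 RPKM and was the highest of the 30 genes in all 3 libraries. Its unselected interval, 213 to 255 RPKM, lay above that of every other member, and it stood at percentile 89.0 of all ORFs kept. In the poly(A)-selected library its interval, 366 to 411 RPKM, overlapped those of MRPS16, 352 to 402, and RSM19, 349 to 406. The top rank is not resolved there. MRPS16 (YPL013C, bS16m, known in bacteria for its part in assembly of the body; chrXVI:528985-529350, minus strand) had 104, 376 and 107 RPKM, so its unselected and RiboMinus values were alike and the poly(A)-selected value stood apart. MRPS17 (YMR188C, uS17m; chrXIII:636291-637004, minus strand) had 55.9, 125 and 153 RPKM and was lowest in the unselected library. NAM9 (YNL137C, uS4m, found as a suppressor of mitochondrial ochre mutations; chrXIV:368595-370055, minus strand) had 66.8, 51.5 and 88.5 RPKM, and it was the only one of the 30 genes whose poly(A)-selected RPKM was the lowest of its 3 values. MRPS8 (uS8m) had 61.3, 139 and 68.5 RPKM, and MRPS5 (uS5m) had 54.6, 71.7 and 43.7 RPKM. MRP4 (YHL004W, uS2m, which in bacteria joins the particle late; chrVIII:99219-100403, plus strand) had 76.2, 100.2 and 53.3 RPKM, lowest in the RiboMinus library. The first 2 bases of MRP4 are shared with YHL005C on the opposite strand, which is not among the listed ORFs.

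The head proteins carry the part of the subunit that swivels during translocation. RSM19 (YNR037C, uS19m; chrXIV:695052-695327, minus strand), the shortest of the 30 coding sequences at 276 nt, had 135, 377 and 100.1 RPKM and was below MRPS12 and MRPS18 alone in the unselected library. In the poly(A)-selected library the intervals of RSM19 and its neighbour MRPS12, 349 to 406 and 366 to 411 RPKM, overlapped. RSM10 (uS10m) had 60.85, 119.8 and 117 RPKM, and RSM7 (uS7m, which contacts the mRNA near the exit) had 67.9, 134 and 85.0 RPKM. RSM10 had the lower value of this pair in the first and second libraries and the higher in the RiboMinus library. The intervals of the pair overlapped in each library, so their order is not resolved. MRP2 (uS14m) had 95.7, 228 and 147 RPKM, and SWS2 (uS13m) had 110.5, 183 and 90.2 RPKM. Among the head genes the unselected median was 92.1 RPKM, and MRPS9 (uS9m), whose tail reaches the P-site tRNA in bacteria, lay at 88.6 RPKM.

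The platform holds the path of the mRNA out of the subunit. MRPS18 (YNL306W, uS11m; not the bS18 family, despite the symbol) had 153, 324 and 205 RPKM and was second in the unselected library. RSM18 (YER050C, bS18m) had 85.7, 186 and 165 RPKM, and MRP17 (bS6m), its partner in the bacterial particle, had 66.9, 157 and 65.65 RPKM. The intervals of that pair overlapped in the unselected and poly(A)-selected libraries, and in the RiboMinus library they were 133 to 203 RPKM for RSM18 and 45.5 to 91.7 RPKM for MRP17. MRP21 (bS21m) had 58.4, 139 and 110.04 RPKM, and MRPS28 (uS15m) had 65.2, 113 and 53.95 RPKM. Both were higher with poly(A) selection than without, and their RiboMinus values fell on opposite sides of the unselected value. For MRPS28 these 2 intervals overlapped, 41.3 to 69.3 RPKM RiboMinus and 57.3 to 73.8 RPKM unselected, so its side is not resolved. Unselected medians of the platform and body groups were 66.9 and 64.1 RPKM.

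Genes of the 11 mitochondria-specific proteins were lower, with medians of 49.7, 74.2 and 61.7 RPKM against 76.2, 139 and 107 RPKM for the 19 bacterial-type proteins. They are also longer, with a median coding length of 966 nt against 612 nt. RSM22 (YKL155C, a putative methyltransferase; chrXI:159456-161342, minus strand), the longest of the 30 at 1887 nt, was lowest in the unselected library with 34.2, 38.1 and 38.3 RPKM. It lay at percentile 36.1 of all ORFs kept, and its 3 values were the closest to each other among the genes named here. Next above it were RSM24 (mS35) with 44.1, 69.6 and 44.4 RPKM and MRP13 (mS44) with 46.1, 74.5 and 58.2 RPKM. Intervals of these neighbours overlapped in the unselected library, 38.0 to 50.9 RPKM for RSM24 and 40.1 to 52.9 RPKM for MRP13, so their order is not resolved there. The unselected interval of RSM22, 30.4 to 38.4 RPKM, also overlapped that of RSM24, at its edge. RSM27 (YGR215W, mS33), the shortest of the group at 333 nt, was its highest in the unselected library with 105, 269 and 80.5 RPKM. RSM23 (mS29, the relative of the human GTP-binding protein DAP3) had 47.9, 49.9 and 34.3 RPKM and was the lowest of the 30 in the RiboMinus library. Its interval there, 26.2 to 44.0 RPKM, overlapped that of RSM22, 31.0 to 46.8 RPKM, so the lowest rank is not resolved. MRPS35 (mS45) had 49.7, 53.8 and 74.0 RPKM, and PET123 (mS26), which interacts genetically with MRP1, had 56.3, 72.8 and 93.1 RPKM. Both rank higher within the group in the RiboMinus library than in the poly(A)-selected one. MRP1 (mS43) and RSM26 (mS42), relatives of superoxide dismutases, and RSM25 (mS23) and RSM28 (mS46) lay between 47.4 and 87.7 RPKM in the unselected library.

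Levels and coding length were related over the 30 genes, with Spearman's rho of −0.63 in the unselected, −0.85 in the poly(A)-selected and −0.54 in the RiboMinus library. Over all ORFs kept the same values were −0.098, −0.38 and −0.076. Length enters the RPKM itself, so these are descriptions of the libraries. The rank order of the 30 genes was most alike between the unselected and poly(A)-selected libraries, with rho of 0.86, against 0.67 between unselected and RiboMinus and 0.70 between poly(A)-selected and RiboMinus. Over all ORFs kept, whose levels span a far wider range, rho was 0.91, 0.93 and 0.86.

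Poly(A)-selected RNA was set against unselected RNA to ask how capture on oligo(dT) alters the relative levels of these mRNAs. A ratio is the log2 of RPKM plus 0.5 in one library over the other, minus the median ORF's value, which was 0.24, and the added 0.5 understates the ratio of a gene with low values. Its interval is the exact binomial (Clopper-Pearson) 95% interval, for counting error only. The median ratio of the 30 genes was 0.49 and 26 of them lay above 0. At least 1.5-fold higher were 12 of 30 genes, or 40.0%, against 20.4% of all ORFs kept, and 1 gene, NAM9, was at least 1.5-fold lower, against 21.3% of all ORFs kept. Without subtraction of the median ORF, 21 genes were higher, against 31.9% of all ORFs kept, and 0 were lower, against 12.6%. Of the 30 intervals, 23 lay wholly above the median ORF, 1 wholly below it and 6 held it. The same was not counted over all ORFs kept, so these counts cannot be read as particular to the 30 genes.

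MRPS16 had the highest ratio, 1.61 (1.38 to 1.86), a 3.06-fold difference. RSM19 followed at 1.24 (0.994 to 1.498) and RSM27 at 1.12 (0.86 to 1.39), a 2.36-fold and a 2.17-fold difference. These are 3 of the 4 shortest coding sequences of the subunit, and the other, MRP2 with 348 nt, had 1.01 (0.75 to 1.29). The remaining 8 higher genes, MRP21, MRP17, MRPS8, MRPS17, RSM18, MRPS18, RSM7 and RSM10, ran from 0.73 to 1.01. By place, 4 of 6 head genes, 4 of 5 platform genes and 3 of 6 body genes were higher, while of the 11 mitochondria-specific genes only RSM27 was. The share over all ORFs kept was 20.4%. These counts were made before removal of the trend with coding length, after which MRPS16, a body gene, was the only one higher. NAM9 had the lowest ratio, −0.61 (−0.80 to −0.42), a 1.53-fold lower value. Next were RSM23 at −0.18 (−0.40 to 0.04), MRPS35 at −0.13 (−0.37 to 0.12) and RSM22 at −0.09 (−0.30 to 0.13), whose intervals held the median ORF.

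The ratios were ordered by coding length. The 10 genes under 600 nt had a median ratio of 0.998, with 8 higher. The 12 genes from 600 to under 1000 nt had 0.44, with 4 higher. The 8 genes of 1000 nt or more had 0.03, with 0 higher and 1 lower. Of all ORFs kept, of any length, 20.4% were higher and 21.3% lower. At 534 nt, the length of MRP21, the running median of all ORFs was itself 0.71, past the 1.5-fold limit. Spearman's rho with length was −0.87 over the 30 genes, −0.80 over the 42 genes of the large subunit and −0.76 over all ORFs kept. After the running median of all ORFs along coding length was removed, the median of the 30 was 0.14. MRPS16 alone was then at least 1.5-fold higher, at 0.76, against 6.92% of all ORFs kept, and 0 genes were lower, against 9.50%. NAM9 then had −0.48. The gap between bacterial-type and mitochondria-specific genes, 0.74 against 0.38 in median ratio, was 0.15 against 0.06 once the length trend was removed. RSM22, the gene with no Puf3 element in the window, had 0.28 on that scale, inside the range of the other 29.

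**Figure D3:**
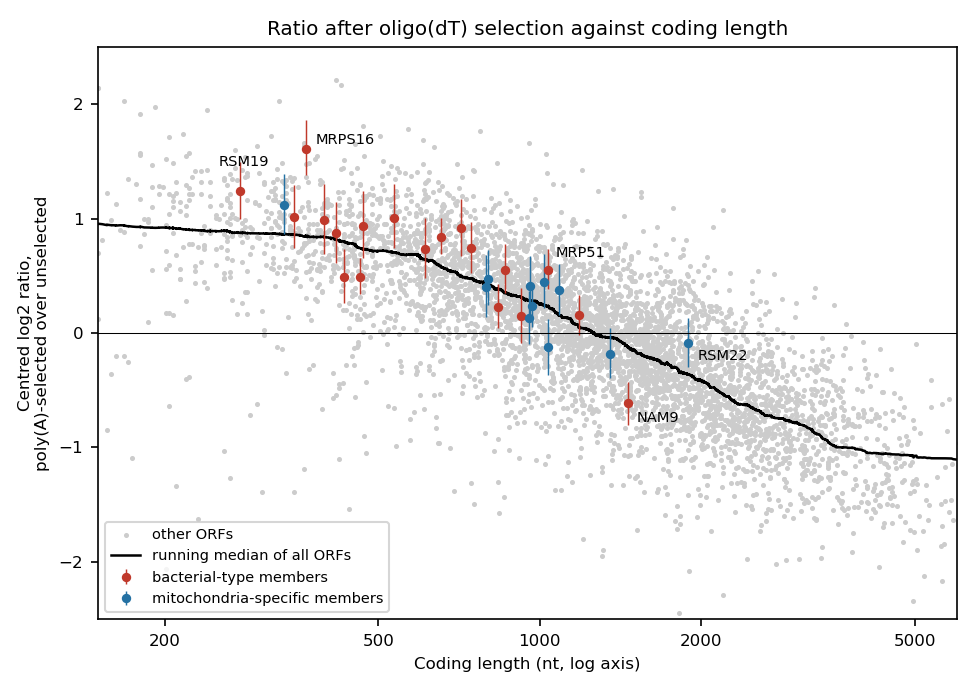
Centred log2 ratio of the poly(A)-selected over the unselected library (y axis) against coding length in nt (x axis, log scale) for bacterial-type (red) and mitochondria-specific (blue) small subunit genes with 95% counting intervals, all other ORFs kept (grey) and their running median (black line). Ratios of the 30 genes fall with length, as the line does, from MRPS16 at 1.61 and RSM19 at 1.24 among the short to NAM9 at −0.61 among the long. MRPS16 lies 0.76 above the line, RSM22 0.28 above it and NAM9 0.48 below it.

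Other genes of mitochondrial translation differed by list in this comparison. For the counts below, 20.4% of all ORFs kept were higher and 21.3% were lower. With the length trend removed these shares were 6.92% and 9.50%. The large subunit had a median ratio of 0.63, with 22 of 42 genes higher and 0 lower, from MRPL4 at −0.04 to MRPL25 at 1.19, and with the length trend removed its median was 0.03, with 0 genes higher and 0 lower. The 9 mitochondrial translation factors, from FMT1 at −1.80 to RRF1 at 0.46, had a median of −0.18 and 3 lower. The 17 translational activators, which act on single mitochondrial mRNAs, ran from PET309 at −0.75 to CBP6 at 0.91 with a median of −0.32, 1 higher and 3 lower. For the 14 mitochondrial aminoacyl-tRNA synthetases the median was −0.38, with 0 higher and 2 lower, from MSM1 at −0.71 to MSW1 at 0.29. Lower were 33.3% of the factors, and 17.6% of the activators and 14.3% of the synthetases, both below the share over all ORFs kept. The other 3 lists have longer coding sequences, with medians of 1314, 1557 and 1669.5 nt against 798 nt for the small subunit, and with the length trend removed their medians were −0.06, −0.02 and −0.10. FMT1 rests on 22 and 50 reads.

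RiboMinus-treated RNA was set against unselected RNA to ask the same of rRNA depletion by probes. Fewer of the 30 genes passed 1.5-fold. The median ratio was 0.21, with 19 genes above 0, and 0.076 had been subtracted as the value of the median ORF. At least 1.5-fold higher were 5 genes, or 16.7%, against 14.6% of all ORFs kept, and 1 gene was lower, against 16.0%, so the share of higher genes was near that of all ORFs. The unselected library is the denominator in this comparison and in the previous one, so a low unselected value raises both ratios. Intervals lay wholly above the median ORF for 12 genes, wholly below it for 2 and held it for 16. Here too the count was not made over all ORFs kept.

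MRPS17 had the highest ratio, 1.36 (1.04 to 1.70), a 2.58-fold difference resting on 143 RiboMinus and 177 unselected reads. RSM18, RSM10 and MRP21 followed with 0.86 (0.48 to 1.25), 0.86 (0.49 to 1.24) and 0.83 (0.42 to 1.25). PET123, with 0.65 (0.32 to 0.97), was the only mitochondria-specific gene among the 5. The single lower gene was MRP4, at −0.59 (−0.95 to −0.25), at the edge of the 1.5-fold limit. It was followed by RSM23 at −0.55 (−0.98 to −0.16), RSM19 at −0.51 (−1.07 to 0.02) and RSM27 at −0.45 (−1.03 to 0.08), which were inside the limit. RSM19 and RSM27 rest on 36 and 35 RiboMinus reads, and their intervals held the median ORF. MRPS16, which had the highest ratio of poly(A)-selected over unselected RNA, had −0.04 here.

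**Figure D4:**
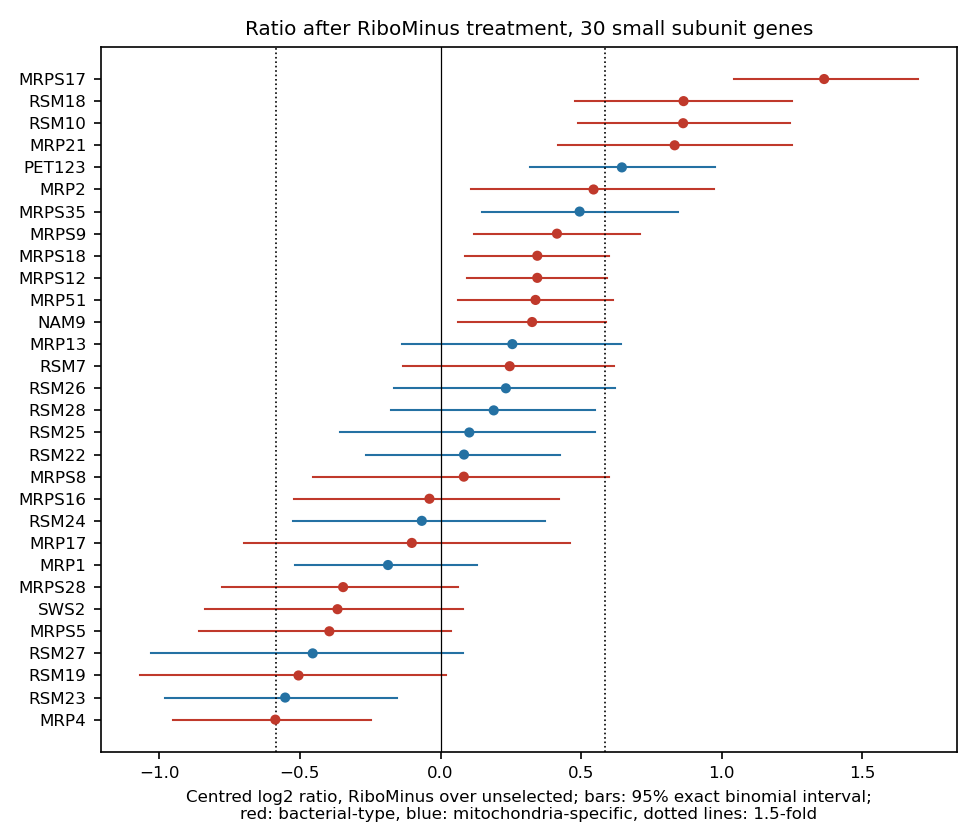
Centred log2 ratio of the RiboMinus over the unselected library for the 30 genes, ordered by ratio, with 95% exact binomial intervals as bars, the median ORF at 0 and the 1.5-fold limits as dotted lines. MRPS17 stands apart at 1.36, and most intervals cross 0.

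Spearman's rho of these ratios was −0.079 with coding length and −0.34 with GC content over the 30 genes, against 0.050 and −0.38 over all ORFs kept. MRPS17 and PET123 are among the 3 genes lowest in GC, both at 36.6%. RSM18, RSM10 and MRP21, also among the higher genes, had 38.8%, 39.5% and 39.1%, around the median of 39.2% over the 30 genes. RSM7, MRPS12 and RSM19 are highest in GC, at 52.0%, 49.4% and 48.6%, and their ratios were 0.25, 0.34 and −0.51. With the length trend removed, MRPS17, RSM18, RSM10, MRP21 and PET123 were the 5 higher genes, against 15.2% of all ORFs kept, and 0 were lower, against 15.2%. With the GC trend removed, 6 genes were higher, against 14.9% of all ORFs kept, and they were MRPS17 at 1.14, RSM10, MRPS12, MRP21, RSM18 and RSM7 at 0.75. RSM23, at −0.77, was then the only lower gene, against 11.7%, and MRP4 had −0.31. The part of GC content in the ratios was not tested.

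The large subunit was spread more widely in this comparison, with a median of −0.26, from MRP20 at −1.93, on 13 reads, to MRPL6 at 1.37. Of its 42 genes, 8 were higher, or 19.0%, against 14.6% of all ORFs kept. Lower were 15, or 35.7%, against 16.0%. The SD of its ratios was 0.85 against 0.48 for the small subunit. The translation factors had a median of 0.12, from FMT1 at −0.48 to TUF1 at 0.59, the activators 0.05, from CBP6 at −0.58 to CBS1 at 1.30, and the synthetases 0.04, from MSD1 at −0.55 to MSE1 at 0.96. With 1 library of each preparation, whether the subunits differ cannot be tested.

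Between the poly(A)-selected and the RiboMinus library, the preparations by which rRNA is commonly removed, the median ratio of the 30 genes was 0.39 after 0.11 was subtracted. At least 1.5-fold higher in the poly(A)-selected library were 9 genes, or 30%, against 25.8% of all ORFs kept, and NAM9 was again the 1 lower gene, against 24.0%. This comparison shares a library with each of the other comparisons and is given for the direct values. RSM19 had the highest ratio, 1.80 (1.32 to 2.33), a 3.47-fold difference, with MRPS16 at 1.70 (1.30 to 2.14) and RSM27 at 1.62 (1.14 to 2.17). MRP17 had 1.14 (0.64 to 1.70), and MRPS28, MRPS8, SWS2, MRP4 and MRPS5 ran from 0.60 to 0.95. The lowest were NAM9 at −0.88 (−1.15 to −0.63), a 1.85-fold lower value, MRPS35 at −0.57 (−0.89 to −0.24), PET123 at −0.46 (−0.76 to −0.16) and MRPS17 at −0.40 (−0.66 to −0.12).

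All these 4 had intervals below the median ORF. RSM19 and NAM9, both bacterial-type, stood at opposite ends of this comparison. With the length trend removed the median was −0.030. RSM19, MRPS16, RSM27 and MRP4 were then higher, 4 genes against 17.6% of all ORFs kept. MRPS17, MRPS35, RSM18, PET123, NAM9, RSM10, MRPS9 and MRPS12 were lower, 8 genes against 18.4%. Spearman's rho of these ratios with GC content was 0.45 over the 30 genes and 0.37 over all ORFs kept. With the GC trend removed instead, 9 genes were higher, against 23.4%, and NAM9 alone was lower, against 22.1%. RSM23 at 0.84 and MRP2 at 0.95 came in, and MRPS5 at 0.49 and MRP4 at 0.42 dropped out.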

How the data were processed

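Cytoplasmic RNA of BY4741 yeast was sequenced in 3 libraries, 1 per preparation. The authors deposited RPKM values to 2 decimals for 5293 ORFs in each. The submitters' processing notes name Bowtie2, TopHat2 and sacCer3. What each did, the versions, the read counter, the annotation and the strandedness were not given in the sources used here. From the spacing of low values the unit was inferred as reads per kilobase, with the stop codon left out of the length, and per 1e6 reads in listed ORFs. Reads were recovered from that spacing: the share of values under 100 reads that came out whole, to 0.1 read, was 99.9%, 99.1% and 99.9% in the unselected, poly(A)-selected and RiboMinus libraries. A count of 0 allows 3 reads, or 0.674, 0.464 and 2.28 RPKM for an ORF of 1 kb. Intervals and floors cover counting error only, since PCR copies were not told apart. A total of 2 columns of per-sample values, footprints and Ribo-Zero, belong to no sample analysed here and were not used beyond their ORF names.

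Every ORF name matched RefSeq's R64 annotation, 203 after a hyphen was restored. The 30 small subunit genes share no 30-base word with another listed ORF. Ratios were computed as log2(RPKM + 0.5) differences, centred on the median of the 5199 ORFs that averaged at least 1 RPKM, and a gene was counted as higher or lower at 1.5-fold, a rule of size. Trends with coding length or GC content were removed with a running median over 10% of the ORFs. No significance test was possible with 1 library per group. Any of the 30 genes could be named, and values in all 3 libraries were given for those among the 3 highest or lowest unselected levels, the 4 highest or lowest ratios of a comparison or past 1.5-fold, the rest being given by range within role groups. Other lists were given by their highest and lowest member. The members and lists were chosen with earlier results of these data known. Alternatives were pseudocounts of 0.1 and 2, no filter, a mean of at least 10 RPKM, no centring, trend removal, the median absolute deviation in place of the SD, and the SD without RSM22 and MRPS35. The read recovery and ratios were tested on simulated data. Python 3.11.15, numpy 2.4.6, pandas 2.3.3, scipy 1.17.1 and matplotlib 3.10.9 were used.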

Additional observations from a re-analysis of the deposited data

How the results depend on the processing

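Of 75 values under the alternatives, 61 stayed close to the value reported (counts within 1.5 times, medians within the typical counting interval of a gene, SDs within the 95% interval of an SD), 13 moved further and 1 changed sign. Without centring, the poly(A)-selected over unselected median of the 30 genes was 0.73, with 21 higher and 0 lower, and 71.6% of calls over all ORFs were then higher against 48.9% with centring. Removal of the length trend gave a median of 0.14 there, with 1 higher and 0 lower, and removal of the GC trend gave 0 lower, NAM9 being the gene lost in each case. For RiboMinus over unselected, the 1 lower gene, MRP4, was lost, leaving 0, with a pseudocount of 2, with no filter, without centring and with the length trend removed. For poly(A)-selected over RiboMinus, removal of the length trend turned the median to −0.030, with 4 higher and 8 lower. The cause was not tested. SDs of levels kept within 0.57 to 0.60 in the unselected, 0.85 to 0.998 in the poly(A)-selected and 0.70 to 0.73 in the RiboMinus library. No paired analysis was possible because each group has 1 library. The RiboMinus library, with a median of 80.5 reads per small subunit gene, limits what can be ordered.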
